A study of Arabidopsis thaliana with 14 samples.

Results

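The step from 6 h to 24 h after fruit removal was described in whole inflorescences of Arabidopsis thaliana, by setting the 2 arrays labelled 24 h against the 2 arrays labelled 6 h. These are 4 of the 14 arrays of the series, chosen by their titles alone, and every one of the 21195 loci with a value row was included. The series asked how developing fruits and seeds act on the growth of the mother plant. All 4 samples came from fertile plants labelled as ms1-1 co-segregants (ms1-1 is a male sterility allele), while the treatment protocol names Landsberg erecta. The plants had been left to arrest, fruits were then taken off, and inflorescences with flowers up to about floral stage 10 were collected either 24 h or 6 h later from pools of 3 to 10 plants. The protocol states that 3 to 4 fruits next to each inflorescence were left on, whereas the series text speaks of removal of all fruits. Growth was in days of 16 h light (20 °C) with nights of 8 h (16 °C). Arrays taken 48 h after removal (2) and from arrested plants with their fruits (2) are used below as points of comparison. The fit also held 1 array of growing inflorescences from sterile plants and 1 from fertile plants. As single arrays of their groups they added nothing to the residual spread. The titles of the 2 arrested arrays carry different code letters, r and g, whereas all fruit removal arrays carry g. The labels do not say what the letters mean.

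Arabidopsis flowers once. After a set of fruits has formed, every inflorescence meristem stops making flowers at about the same time, an event called global proliferative arrest, and taking the fruits away lets the inflorescences grow again. Renewed growth requires cells to pass through DNA replication and mitosis, while sugar supply and hormones such as jasmonate, abscisic acid and cytokinin are known to act on buds that pause and resume. The clock time of collection is not given in the labels. The 2 collection times lie 18 h apart, so time since removal and time of day cannot be told apart here.

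Values are the deposited log2 expression values, and a difference of 1 on this scale is 2-fold. No locus was called between 24 h and 6 h (0 of 21195, percent called 0, limma with Benjamini-Hochberg adjustment at 0.05), and the lowest adjusted p was 0.2. At an unadjusted limma p under 0.05 there were 2329 loci, or 11% of those tested, of which 1564 were higher (7.38%) and 765 were lower (3.61%) at 24 h. That split depended on how the arrays were scaled: 67.2% of these loci were higher with the values as deposited, 51.9% after quantile normalization and 53.1% after median centring. The median difference over all loci was 0.14 as deposited and 0.03 after quantile normalization, and each gene list below should be read against it. The median standard error (SE) of a difference was 0.226, and the 95% interval of a typical locus reached 0.524 to either side. Between these times no gene rose or fell by this test, and the values below are given as a description.

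The 2 arrays of 6 h lay closer together (Pearson r 0.991, median SD 0.0849) than the 2 arrays of 24 h (r 0.982, median SD 0.163). Replicate 2 of 24 h lay farther from the 6 h mean than replicate 1 at 70.1% of loci, and replicate 1 correlated with 6 h replicate 1 at 0.983, about as well as with its own partner. The 2 arrested arrays lay farther apart (median SD 0.24) than the arrays of any time after removal, which bears on every comparison with arrested below. Array medians were 7.29 and 7.40 at 24 h and 7.27 and 7.28 at 6 h. The loci whose arrays did not overlap were counted as well. Both 24 h arrays lay above both 6 h arrays at 40.6% of loci and below them at 17.1%. After quantile normalization these shares were 29.6% and 24.3%, and after median centring 33.8% and 22.3%; the list counts below are of the values as deposited. With a difference of at least 2-fold as well, there were 189 higher loci (0.892%) and 243 lower loci (1.15%) at 24 h, against 144 and 347 after quantile normalization. Of 5 genes that mark inflorescence and floral tissue (AP1, LFY, AG, SEP3 and STM), all read between 7.35 and 11.08 on the 4 arrays. Nothing in the labels says that replicates were independent plantings, and the p-values may reflect technical spread alone.

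**Figure D1:**
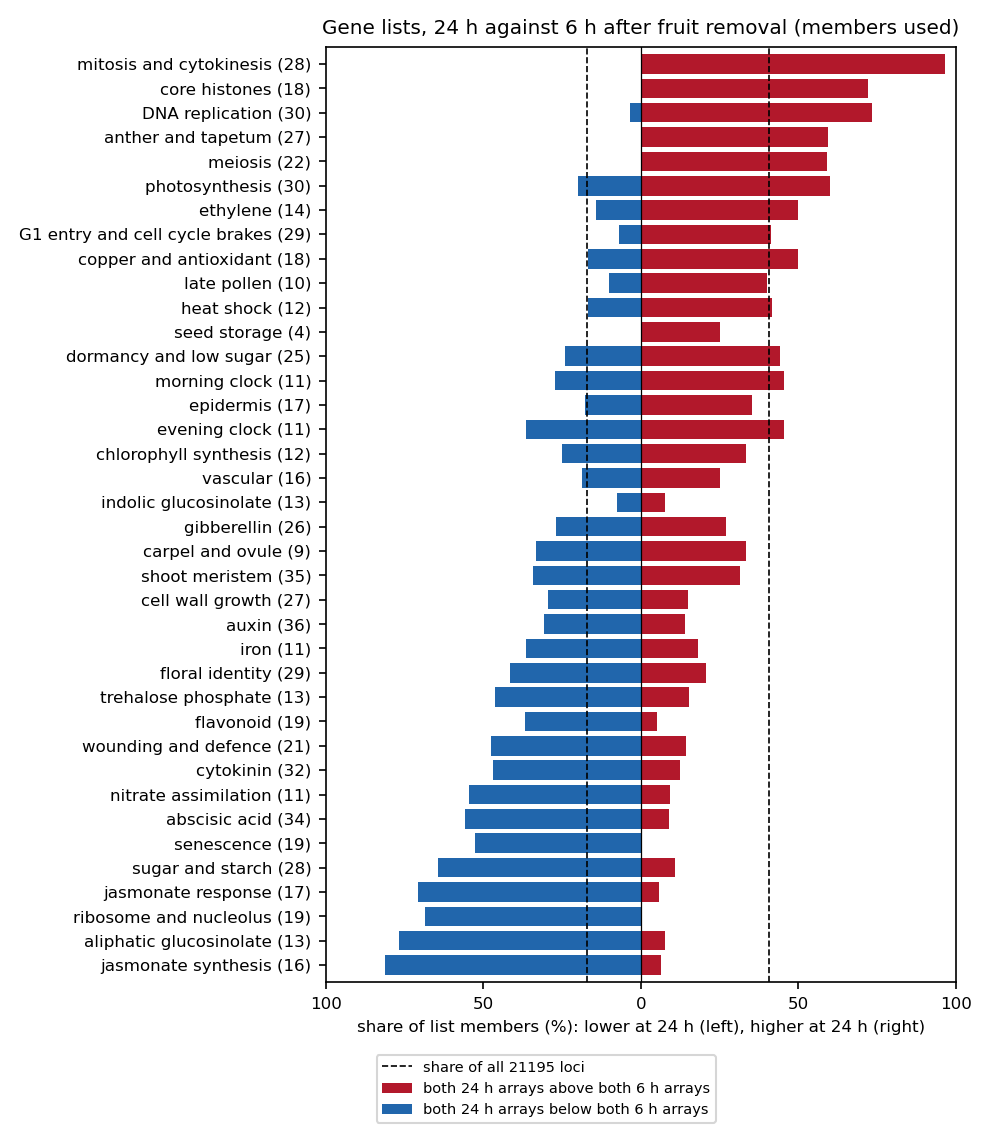
Share of the members of each gene list (percent, with the number of members used in brackets) whose 24 h arrays both lay above (red, right) or both below (blue, left) both 6 h arrays. Dashed lines mark the same shares over all 21195 loci, 40.6% and 17.1%; mitosis and cytokinesis stands at the top (27 of 28 higher) and jasmonate synthesis at the bottom (13 of 16 lower).

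Genes of cell division stood higher at 24 h than at 6 h, and those of mitosis did so almost without exception. Of 28 mitosis and cytokinesis genes, 27 had both 24 h arrays above both 6 h arrays and none had both below, against 40.6% and 17.1% of all loci. The list median was 0.78, against 0.14 over all loci, and members ranged between 0.25 and 1.09. None was called, and 23 had an unadjusted limma p under 0.05, all higher. The one member with overlapping arrays was the spindle checkpoint gene BUBR1 (7.18 and 7.82 at 24 h, 7.25 and 6.75 at 6 h).

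CKS1, a subunit that docks cyclin-dependent kinases to their substrates, read 9.37 and 9.63 at 24 h and 8.82 and 8.62 at 6 h (difference 0.78, SE 0.18, limma adjusted p = 0.3). PLE, which bundles microtubules in the dividing cell's phragmoplast, read 7.48 and 7.96 at 24 h and 6.99 and 6.62 at 6 h (0.92, SE 0.22, limma adjusted p = 0.31). Neither gene had overlapping arrays, and in CKS1 the gap between the time points was wider than that between replicates. The cyclin CYCA1;1 had the largest difference of the list, with 9.03 and 9.99 at 24 h against 8.66 and 8.19 at 6 h (1.09, SE 0.32). CYCB1;1, a cyclin made just before mitosis, read 7.77 and 7.99 at 24 h against 7.37 and 6.66 at 6 h (0.87, SE 0.27). The aurora kinase AUR1, which acts on the spindle, read 8.25 and 8.97 at 24 h against 7.89 and 7.51 at 6 h (0.91, SE 0.28). The syntaxin KN, which fuses vesicles into the new cell plate, stood at 9.71 and 10.36 at 24 h against 9.35 and 8.59 at 6 h. In this list the spread within a time point ran the same way in most genes, since 24 h replicate 2 read higher than replicate 1 in all but CENP-C.

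Because replicate 2 stood apart, each 24 h array was also set against the 6 h arrays on its own. Replicate 1 lay above both 6 h arrays for 27 of the 28 mitosis genes, against 47.5% of all loci, and replicate 2 for 28 of 28, against 63.2%. Without 24 h replicate 2 the list median was 0.51, and without 24 h replicate 1 it was 0.98. The number of mitosis genes with an unadjusted limma p under 0.05 was 2 without 24 h replicate 2 (3.66% of all loci), and likewise 2 without 6 h replicate 2. Vascular marker genes also read higher on 24 h replicate 2 than on replicate 1, in 15 of 16 cases, and their part in the mitosis values was not tested.

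Steps before and after share the 6 h or the 24 h arrays with this one. At 6 h, 15 of the 28 mitosis genes had risen over arrested inflorescences (8.7% of all loci had), with a list median of 1.02, and at 24 h 23 had (10.5% of all loci), with a median of 1.75. Between 24 h and 48 h, 0.561% of all loci were called but no mitosis gene was, and the list median was 0.29. CKS1 and AUR1 were not among the genes called at 6 h or 24 h, with differences from arrested of -0.35 and -0.33 at 6 h (limma adjusted p = 0.21 and 0.46).

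DNA replication genes showed a smaller difference in the same direction. Of 30, 22 had both 24 h arrays above both 6 h arrays and 1 had both below, against 40.6% and 17.1% of all loci. The list median was 0.39. The median was 0.24 without 24 h replicate 2 and 0.25 without 6 h replicate 2. At an unadjusted limma p under 0.05 there were 6, all higher, and 0 without 24 h replicate 2 or without 6 h replicate 2. TK1A, a thymidine kinase that supplies a DNA building block, read 7.98 and 8.66 at 24 h against 7.59 and 7.31 at 6 h (0.87, SE 0.34). TSO2, a small subunit of ribonucleotide reductase, read 10.72 and 11.02 at 24 h against 10.40 and 9.87 at 6 h (0.74, SE 0.26). RPA1D, which coats single-stranded DNA, read 8.46 and 8.59 at 24 h against 8.10 and 7.78 at 6 h (0.58, SE 0.18). The replication factors SLD5 and MCM10 differed by 0.51 and 0.49. The single member below was RNR2A, another ribonucleotide reductase subunit (9.70 and 9.48 at 24 h, 9.93 and 10.13 at 6 h). Against arrested inflorescences 17 replication genes had risen at 6 h (8.7% of all loci had) and 22 at 24 h (10.5%), with medians of 1.31 and 1.45.

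Core histones package newly made DNA. Of 18, 13 had both 24 h arrays above both 6 h arrays and none below, with a median of 0.31 and 3 at an unadjusted limma p under 0.05 (0 without 24 h replicate 2 or without 6 h replicate 2). The shares of all loci were 40.6% above and 17.1% below. HTA11, an H2A.Z-type histone, read 10.27 and 10.81 at 24 h against 9.86 and 9.39 at 6 h (0.92, SE 0.27), and HTA6 read 11.45 and 11.65 at 24 h against 11.04 and 10.59 at 6 h (0.74, SE 0.25). HTA7, HTB11 and HIS4 differed by 0.55, 0.52 and 0.37. In the list of G1 entry genes and cell cycle brakes, 12 of 29 lay above and 2 below, a share of higher genes near that of all loci, and the median was 0.19. MYB3R-4, an activator of G2 and M phase genes, read 7.05 and 7.66 at 24 h against 6.86 and 6.41 at 6 h (0.72).

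**Figure D2:**
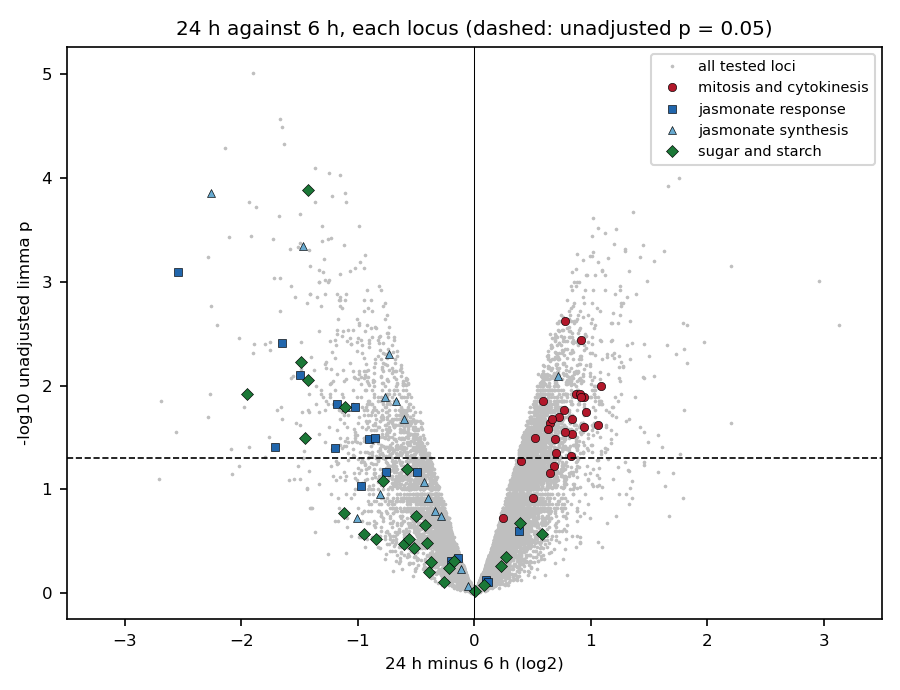
Difference between 24 h and 6 h of each locus (log2, horizontal axis) against the size of its unadjusted limma p on a -log10 scale (vertical axis), with 4 gene lists coloured. The 28 mitosis genes (red circles) all lie to the right of 0, between 0.25 and 1.09, whereas most jasmonate and sugar genes lie to the left; the dashed line marks an unadjusted p of 0.05.

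The germ line and the anther showed small positive differences, with list means below the array medians. The lower quartile of all loci was 5.86 and 6.14 on the 24 h arrays against 5.79 and 5.80 on the 6 h arrays. Dim loci as a whole thus read higher at 24 h as deposited, above all on replicate 2, and the part of this in the 2 lists was not tested. In the meiosis list 13 of 22 genes had both 24 h arrays above both 6 h arrays and none had both below, against 40.6% and 17.1% of all loci. The list median was 0.34. DMC1, the recombinase of meiosis, read 8.13 and 8.12 at 24 h against 7.32 and 6.47 at 6 h (1.23, SE 0.28, limma adjusted p = 0.3). Its 24 h arrays read almost the same, its 6 h arrays lay farther apart, and the groups did not overlap. The crossover genes SHOC1 and RCK differed by 0.75 and 0.70 at values of at most 5.35 on these arrays. OSD1, a cell cycle gene of meiosis, differed by 0.44. At an unadjusted limma p under 0.05 there were 4 meiosis genes, and 1 without 24 h replicate 2 or without 6 h replicate 2. After quantile normalization 10 meiosis genes lay above and 1 below, with a median of 0.13, and the shares of all loci were 29.6% and 24.3%. Without 24 h replicate 2 the meiosis median was 0.16.

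In the anther and tapetum list, 16 of 27 genes lay above and none below, against 40.6% and 17.1% of all loci, with a median of 0.36. At an unadjusted limma p under 0.05 there were 2 of the 27, both higher, and 7.38% of all loci were higher. After quantile normalization 11 lay above and 1 below, against 29.6% and 24.3% of all loci, with a median of 0.18. Without 24 h replicate 2 the median was 0.19. The tapetum is the anther layer that feeds the pollen and builds its wall. TDF1, a MYB factor early in the tapetum cascade, read 4.94 and 4.73 at 24 h against 4.01 and 4.05 at 6 h (0.81, SE 0.22, limma adjusted p = 0.35). AMS, a bHLH factor acting after it, read 4.94 and 4.20 at 24 h against 3.91 and 4.24 at 6 h, so that its arrays overlapped. DRL1, a reductase of the pollen wall polymer sporopollenin, read 6.92 and 6.83 at 24 h against 6.33 and 6.36 at 6 h (0.53), and CCRL6 of the same pathway differed by 0.88. Both 48 h arrays of DRL1 stood higher, at 10.06 and 10.67, and 18 of the 27 genes rose between 24 h and 48 h, as 0.472% of all loci did.

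The test of whether the first step (6 h to 24 h) differed from the next one (24 h to 48 h) called 22 loci, or 0.104% of those tested (limma, adjusted p under 0.05, with 1068 loci at an unadjusted p under 0.05). In all 22 the next step was the larger one. These loci read at most 6.99 at 6 h and 24 h and at least 8.13 at 48 h. Their differences between 24 h and 6 h lay between -0.59 and 0.76, while those between 48 h and 24 h lay between 2.88 and 6.44 and were all called. The test that picked these loci contains the 48 h minus 24 h difference on the same arrays. Large values of that difference therefore follow largely from the choice of loci. Among them were 8 of the 27 anther and tapetum genes.

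CYP704B1, a hydroxylase of sporopollenin precursors, read 4.38 and 3.76 at 24 h and 4.29 and 3.93 at 6 h, followed by 9.63 and 10.96 at 48 h. The pollen coat oleosin GRP19 read 5.47 and 5.71 at 24 h and 5.18 and 5.47 at 6 h, and then 12.45 and 11.09 at 48 h. LTP12, a lipid transfer protein of the tapetum, read 4.89 and 5.61 at 24 h and 5.07 and 4.61 at 6 h, and then 11.26 and 10.97 at 48 h. These 3 genes had overlapping arrays at 6 h and 24 h, and their 48 h arrays stood far above both. MS2, a fatty acyl reductase of the pollen wall, SHT, which attaches phenolic acids to spermidine, the methyltransferase TSM1, the anther gene ATA20 and QRT3, which separates the microspores, completed the 8 list members. ATA27 and MEE48 were called as well, and 12 called loci have no symbol in the gene table. When any one array of 6 h or 24 h was left out, 0 loci were called, with 453 to 1928 at an unadjusted limma p under 0.05.

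**Figure D3:**
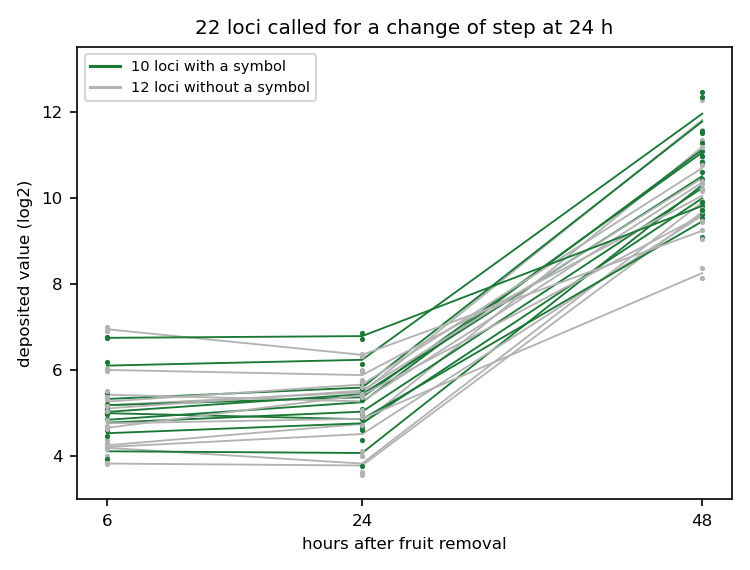
Deposited log2 values of the 22 loci called for a change of step, at 6 h, 24 h and 48 h after fruit removal (points are arrays, lines join means). The loci were picked by a test on these same arrays, so their gap at 48 h follows largely from that choice. All points at 6 h and 24 h lie at 6.99 or below and all points at 48 h at 8.13 or above; green lines are the 10 loci with a gene symbol and grey lines the other 12.

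Genes of ribosome assembly stood lower at 24 h. Of 19 ribosome and nucleolus genes, 13 had both 24 h arrays below both 6 h arrays and none above, against 17.1% and 40.6% of all loci, and the median was -0.36. Of these 19, 4 had an unadjusted limma p under 0.05, and 0 without 24 h replicate 2 or without either 6 h array. RID2, a methyltransferase that matures ribosomal RNA, read 9.13 and 8.67 at 24 h against 9.48 and 9.62 at 6 h (-0.65, SE 0.23). SWA1, a nucleolar protein of the same process, read 8.47 and 7.63 at 24 h against 8.84 and 9.15 at 6 h (-0.95, SE 0.37), and nucleolin NUC-L1 read 11.98 and 11.58 at 24 h against 12.45 and 12.55 at 6 h (-0.72, SE 0.3). The nucleolar Pumilio proteins APUM24 and APUM23 differed by -0.72 and -0.48. The ribosomal proteins proper differed less, with RPS6A at 0.04, RPL23AA at -0.05 and RPL5A at -0.17, and the sign of each turned when a 24 h array was left out. Replicate 1 of 24 h lay below both 6 h arrays for 13 of 19 genes, against 30.5% of all loci, and replicate 2 for 19 of 19, against 24.8%. Without replicate 2 the median was -0.17, and without replicate 1 it was -0.56. Against arrested inflorescences 9 of these genes had risen at 6 h (8.7% of all loci had) and 6 at 24 h (10.5%).

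Most jasmonate genes were lower at 24 h. Jasmonate is a lipid-derived hormone of wounding and flower maturation, and the JAZ proteins are repressors whose genes it switches on. Of 16 synthesis and turnover genes 13 had both 24 h arrays below both 6 h arrays and 1 had both above, with a median of -0.64. Of 17 response genes 12 lay below and 1 above, with a median of -0.90. The shares of all loci were 17.1% below and 40.6% above. None was called, and at an unadjusted limma p under 0.05 there were 7 lower and 1 higher in the first list and 9 lower in the second. Without 24 h replicate 2 these counts were 3 and 2, without 6 h replicate 1 they were 6 and 3, and without 6 h replicate 2 they were 5 and 7.

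LOX3, a lipoxygenase of the first step, read 6.70 and 6.53 at 24 h against 9.19 and 8.57 at 6 h (-2.26, 4.81-fold lower, SE 0.32, limma adjusted p = 0.22). OPCL1, which activates a later precursor, read 7.95 and 7.68 at 24 h against 9.37 and 9.21 at 6 h (-1.47, SE 0.25, limma adjusted p = 0.23). In both genes the replicates of a time point lay closer to each other than the time points did. OPR3, the reductase that commits the precursor to jasmonate, read 9.12 and 8.77 at 24 h against 9.68 and 9.74 at 6 h (-0.77, SE 0.24). CYP94C1, which breaks the active hormone down, read 5.56 and 5.94 at 24 h against 6.47 and 6.50 at 6 h (-0.73, SE 0.19). AOC4, an allene oxide cyclase, was the exception in the other direction, with 9.53 and 9.90 at 24 h against 9.13 and 8.87 at 6 h (0.72, SE 0.2), while its paralogue AOC3 differed by -0.60.

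JAZ7 had the largest difference of the repressors, with 5.04 and 5.15 at 24 h against 8.08 and 7.18 at 6 h (-2.54, 5.8-fold lower, SE 0.48, limma adjusted p = 0.24). JAZ5 read 9.18 and 8.16 at 24 h against 10.47 and 10.17 at 6 h (-1.65, SE 0.41). JAZ6 read 10.53 and 9.57 at 24 h against 11.58 and 11.52 at 6 h (-1.50, SE 0.42). JAZ1 and JAZ2 differed by -1.18 and -1.02. Of the 11 JAZ genes measured, 9 had both 24 h arrays below both 6 h arrays, against 17.1% of all loci. JAZ12 and JAZ4 overlapped, with differences of -0.20 and -0.14, the first of which turned sign without 6 h replicate 1. The regulator MYC2, which binds jasmonate target genes, differed by -0.85. In the fits against arrested, which share these arrays, JAZ7 had risen at 6 h (2.2, limma adjusted p = 0.016) and stood at -0.34 at 24 h (limma adjusted p = 0.64). JAZ5 had risen at both, by 4.07 at 6 h and by 2.42 at 24 h. The same fits called 11 synthesis genes higher than arrested at 6 h (8.7% of all loci) and 6 at 24 h (10.5%).

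**Figure D4:**
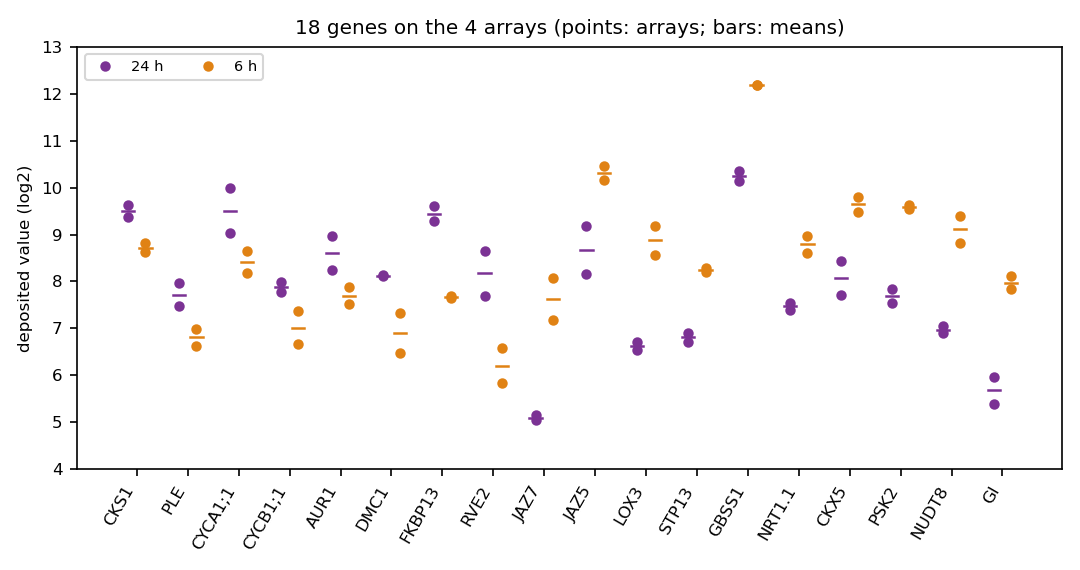
Deposited log2 values of 18 genes on the 24 h arrays (purple, left of each pair) and the 6 h arrays (orange), with bars at the means. The 24 h arrays lie above the 6 h arrays for the 8 genes on the left and below them for the 10 genes on the right, and no pair overlaps. The genes were picked by their values on these arrays, so their separation follows largely from that choice.

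Sugar and starch genes were lower at 24 h in most cases. Of 28, 18 had both 24 h arrays below both 6 h arrays and 3 above, against 17.1% and 40.6% of all loci. The list median was -0.51, and 6 were lower at an unadjusted limma p under 0.05. Of all loci 3.61% were lower at that threshold. The list median was -0.39 without 24 h replicate 1 and -0.50 without 24 h replicate 2. STP13, a hexose importer of the plasma membrane, read 6.91 and 6.71 at 24 h against 8.28 and 8.20 at 6 h (-1.43, 2.69-fold lower, SE 0.2, limma adjusted p = 0.22). Genes of starch differed in both size and direction, from the beta-amylase BAM5 (0.39), the disproportionating enzyme DPE1 (0.27), ADG1 (0.08) and BAM1 (-0.17) to those that follow. The signs of DPE1 and ADG1 turned without 24 h replicate 2. GBSS1, the granule-bound starch synthase, read 10.14 and 10.36 at 24 h against 12.19 and 12.20 at 6 h (-1.95, SE 0.6). APL3, a subunit of the enzyme that makes the starch precursor, read 8.59 and 8.85 at 24 h against 9.85 and 9.81 at 6 h (-1.11, SE 0.36). GPT2, which imports sugar phosphate into plastids, read 10.68 and 10.99 at 24 h against 12.31 and 12.22 at 6 h (-1.43, SE 0.41). The sucrose transporter SUC1 read 9.89 and 9.23 at 24 h against 10.70 and 11.41 at 6 h (-1.49, SE 0.4). Against arrested, GPT2 had risen by 3.57 at 6 h and by 2.14 at 24 h, whereas STP13 had fallen, with differences of -1.07 at 6 h and -2.49 at 24 h.

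**Figure D5:**
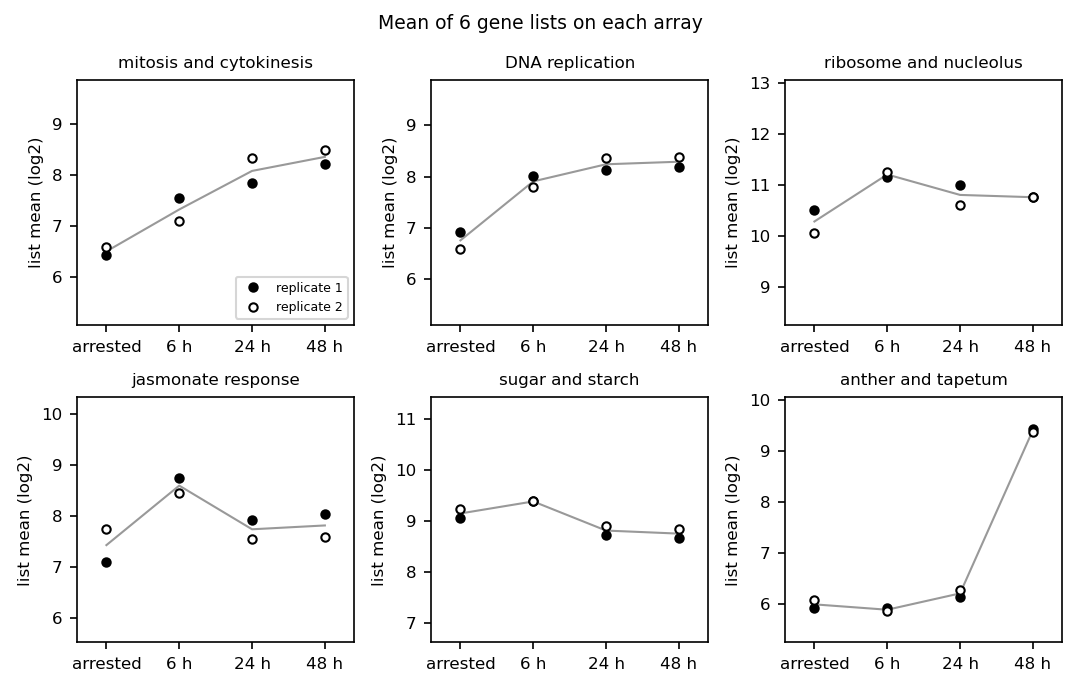
Mean log2 value of 6 gene lists on each array of arrested inflorescences and at 6 h, 24 h and 48 h after fruit removal (filled circles replicate 1, open circles replicate 2, grey lines join means; all panels span the same range). The jasmonate response and ribosome lists are highest at 6 h, the mitosis and replication lists are higher at 24 h than at 6 h, and the tapetum list is at 9.37 or above on the 48 h arrays and at 6.27 or below on the others.

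Most abscisic acid and senescence genes read lower at 24 h. Of 34 abscisic acid genes 19 lay below and 3 above, against 17.1% and 40.6% of all loci. The list median was -0.41, and 7 were lower at an unadjusted limma p under 0.05. Of all loci 3.61% were lower at that threshold. The median was -0.25 without 24 h replicate 1 and -0.23 without 6 h replicate 1. LTI30, a dehydrin that protects cells under drought and cold, read 5.32 and 5.95 at 24 h against 7.06 and 7.05 at 6 h (-1.42, SE 0.25, limma adjusted p = 0.23). PP2CA, a phosphatase that holds the pathway off, read 9.91 and 9.95 at 24 h against 10.70 and 10.82 at 6 h (-0.83, SE 0.2). The receptor PYL4 read 8.98 and 8.58 at 24 h against 9.64 and 10.55 at 6 h (-1.32, SE 0.4). COR47 and the linker histone HIS1-3 differed by -1.24 and -0.97, and both had fallen against arrested at 6 h (-2.23 and -2.94) and at 24 h (-3.48 and -3.92). Of the 34 genes, 12 had a positive difference. Among them were HAI3 (0.34), whose arrays did not overlap, and HB-12 (0.24), HB-7 (0.23) and ABF4 (0.20), whose arrays did.

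Of 19 senescence genes 10 lay below and none above, against 17.1% and 40.6% of all loci. The list median was -0.29, and 3 had an unadjusted limma p under 0.05. SAG12, a protease gene of late senescence, read 5.32 and 5.57 at 24 h against 6.85 and 6.42 at 6 h (-1.19, SE 0.3). The transcription factor genes MYB2 and NAC6 differed by -0.91 and -1.33, and PPH, which removes phytol from chlorophyll, by -0.59. Against arrested, 8 senescence genes had fallen at 6 h (13.1% of all loci had) and 10 at 24 h (11.5%), among them SAG12 with differences of -2.50 at 6 h and -3.69 at 24 h. In the dormancy and low-sugar list 11 of 25 lay above and 6 below, near the 40.6% and 17.1% of all loci. The list median was 0.10, and it was -0.05 after quantile normalization. The homeobox gene HB21, known to restrain bud growth, read 7.78 and 8.09 at 24 h against 7.26 and 6.95 at 6 h (0.83, SE 0.24), and it had fallen against arrested at both times (-3.05 at 6 h, -2.21 at 24 h). DRM1, a marker of dormant buds, read 8.20 and 9.24 at 24 h against 7.40 and 7.12 at 6 h (1.46, SE 0.64). It too had fallen against arrested at both times (-4.32 at 6 h, -2.87 at 24 h). PPDK and XYL4 of the same list were lower at 24 h, by -0.62 and -1.02. The homeobox genes HB40 and HB53 differed by 0.10, with overlapping arrays, and by -0.20.

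Cytokinin and nitrate genes were lower at 24 h in about as many cases as not, more often than the 17.1% of all loci. Of 32 cytokinin genes 15 lay below and 4 above, with a median of -0.18 and 7 lower at an unadjusted limma p under 0.05. After quantile normalization 17 lay below and 2 above, with a median of -0.37. CKX5, an oxidase that degrades cytokinin, read 8.43 and 7.72 at 24 h against 9.49 and 9.80 at 6 h (-1.57, SE 0.31, limma adjusted p = 0.26). CKX3 differed by -0.80, the type-A response regulators ARR8 and ARR5, which the hormone switches on, by -0.81 and -0.62, and the response factor CRF2 by -1.02. In all 5 genes 6 h replicate 2 read higher than replicate 1. Without it 1 cytokinin gene had an unadjusted limma p under 0.05, and without 24 h replicate 2 there were 2.

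In the nitrate list 6 of 11 genes lay below and 1 above, with a median of -0.46 and 4 lower at an unadjusted limma p under 0.05. NRT1.1, a nitrate transporter and sensor, read 7.39 and 7.55 at 24 h against 8.61 and 8.98 at 6 h (-1.33, SE 0.25, limma adjusted p = 0.24). The nitrate reductase NIA1 read 8.68 and 8.18 at 24 h against 9.17 and 9.76 at 6 h (-1.04, SE 0.33). NIR1, the nitrite reductase of the next reaction, read 8.63 and 8.58 at 24 h against 9.18 and 10.53 at 6 h (-1.25, SE 0.45), with 6 h replicates farther apart than the nearest arrays of the 2 times. UPM1, which helps make the cofactor of nitrite reductase, differed by -1.36. Without 24 h replicate 2 or without 6 h replicate 2, 1 nitrate gene had an unadjusted limma p under 0.05, and without 24 h replicate 2 the list median was -0.29. Aliphatic glucosinolate genes make defence compounds from methionine. They were lower in 10 of 13 cases by both arrays, against 17.1% of all loci, but none reached an unadjusted limma p under 0.05. Their median was -0.59, and it was -0.33 without 6 h replicate 1 and -0.86 without 6 h replicate 2.

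Among 11 morning clock genes 5 lay above and 3 below, and among 11 evening clock genes 5 lay above and 4 below. The shares above (45.5% in each) were near the 40.6% of all loci. Those below, 27.3% and 36.4%, were larger than the 17.1% of all loci. At an unadjusted limma p under 0.05, 3 morning genes were higher and 1 lower, and 2 evening genes were higher and 3 lower. Of all loci 7.38% were higher and 3.61% lower at that threshold. Single clock genes differed in both directions. GI, an evening clock gene, read 5.97 and 5.39 at 24 h against 8.11 and 7.84 at 6 h (-2.29, SE 0.78), and PRR7 read 7.50 and 5.86 at 24 h against 8.28 and 8.40 at 6 h (-1.66, SE 0.54). In the other direction RVE2 read 7.69 and 8.65 at 24 h against 6.58 and 5.83 at 6 h (1.97, SE 0.48), and COL2 read 8.70 and 8.47 at 24 h against 7.59 and 7.05 at 6 h (1.26, SE 0.27). JMJ30 read 7.12 and 8.69 at 24 h against 6.18 and 6.17 at 6 h (1.73, SE 0.45), and LHY differed by 0.78. The 24 h replicates differed from each other by more than 1 in PRR7 and JMJ30. CCA1, the partner of LHY, overlapped between the times, and its difference of -0.01 turned sign without 24 h replicate 2 or without 6 h replicate 1. Starch and clock genes are known to cycle over the day, and for both the time of day and the time since removal cannot be told apart here.

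Among all loci with a symbol, those with the lowest p-values and the largest differences were chosen after their values were seen. PSK2, a precursor of the growth peptide phytosulfokine, had the lowest p of all loci, with 7.53 and 7.84 at 24 h against 9.64 and 9.54 at 6 h (-1.90, 3.75-fold lower, SE 0.19, limma adjusted p = 0.2). NUDT8, a nudix hydrolase, read 7.04 and 6.90 at 24 h against 9.40 and 8.82 at 6 h (-2.14, SE 0.27), and CHAT, an enzyme of green leaf volatiles, read 6.99 and 6.64 at 24 h against 8.51 and 8.39 at 6 h (-1.63, SE 0.2). The transporters UMAMIT12 and PMT5, of the amino acid and polyol families, differed by -1.65 and -1.25. FKBP13, an immunophilin of the thylakoid lumen, had the lowest p of all higher loci, with 9.28 and 9.60 at 24 h against 7.70 and 7.65 at 6 h (1.76, 3.4-fold higher, SE 0.24, limma adjusted p = 0.22). FKBP13 had fallen against arrested at 6 h (-1.83, limma adjusted p = 0.0035) and stood at -0.06 at 24 h. GER3, a germin-like protein, had the largest difference of all loci, with 9.86 and 11.41 at 24 h against 8.13 and 6.88 at 6 h (3.13, SE 0.72), and its replicates differed by more than 1 at both times. TCH4, a touch-induced cell wall gene, had the largest negative one, with 7.86 and 8.40 at 24 h against 10.34 and 11.34 at 6 h (-2.71, SE 1.34).

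Markers of other tissues were followed on the same arrays, and no member of any list read 0 on any of the 4 arrays. The mean of the vascular list was 7.32 and 7.85 at 24 h and 7.41 and 7.31 at 6 h, so 24 h replicate 2 stood apart there too. The xylem protease XCP2 read 8.22 and 9.26 at 24 h against 8.01 and 7.43 at 6 h, and the cellulose synthase IRX3 of the secondary wall read 6.48 and 7.59 at 24 h against 6.84 and 6.14 at 6 h. In the list 4 of 16 lay above and 3 below, against 40.6% and 17.1% of all loci. Late pollen genes averaged 7.66 and 7.76 at 24 h and 7.35 and 7.57 at 6 h, with 4 of 10 above and 1 below. Epidermis genes averaged 9.15 and 9.23 at 24 h and 9.09 and 9.08 at 6 h, and seed storage genes 5.17 and 5.29 at 24 h and 5.18 and 5.06 at 6 h. The part of such shares of tissue in the list values above was not tested, and in whole inflorescences fewer cells of a type and less RNA per cell cannot be told apart. Shoot meristem, auxin, gibberellin and floral identity genes had medians of 0.02, 0.00, -0.04 and -0.01 as deposited, and of -0.11, -0.09, -0.23 and -0.06 after quantile normalization.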

How the data were processed

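RNA from whole inflorescences was hybridised to Affymetrix arrays after 3' IVT amplification, per the labels' protocols. The authors deposited 1 log2 value per probe set row and array, with 2 decimals and a highest value of 14.13. That the scale is log2 was inferred from the values, and how the arrays were normalized was not stated in the labels or headers. Arrays carry no read depth, so precision rests on their number, 2 a time point.

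All 10 inflorescence arrays were fitted with 1 mean per group (6 groups) in limma 3.58.1 under R 4.3.3, after leaving out 58 control rows. The growing sterile and growing fertile groups held 1 array each, so the 4 residual degrees of freedom came from the groups with 2 arrays. The p-values were adjusted by Benjamini-Hochberg over 21195 loci with a threshold of 0.05. The change of step is the difference 24 h minus 6 h less the difference 48 h minus 24 h. The procedure was tested on simulated data with independent noise for each locus and array, without a shift shared by a whole array. Locus names came from a RefSeq table of TAIR10.1 (21097 matched, 98 did not); no sequence was used here. Of 851 genes written in 38 lists, 762 were used, 64 have no row and 25, whose locus carries another name in the table, were left out.

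The rule named the 15 largest called differences in each direction, of which there were none, and the 5 members of each list with the lowest p; other genes named were chosen after their values were seen. Only some of the genes this rule selects are described. Lists and comparisons were chosen with earlier results of these data known. Replicate numbers follow deposition order. Alternatives were quantile normalization, median centring, a filter on dim rows, smaller sets of arrays, a block for the r or g letter in the labels, and eBayes with trend or robust.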

Additional observations from a re-analysis of the deposited data

How the results depend on the processing

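No locus was called between 24 h and 6 h with the values as deposited or under any of 16 alternative settings, where the lowest adjusted limma p ranged between 0.059 and 0.98. The number of loci at an unadjusted limma p under 0.05 was 2329, and it was 3721 with only the 6 fruit removal arrays or with the r or g letter as a block, 4218 with only the 4 arrays of 6 h and 24 h, and between 694 and 3721 when single arrays were left out (694 without 6 h replicate 2, 775 without 24 h replicate 2, 1146 without 6 h replicate 1). The number of loci with both 24 h arrays above both 6 h arrays was 8609, and 4151 among rows above the median row mean, where fewer rows were tested, and ranged between 10075 and 13388 with 1 array of the 4 left out; the number below was 3617 and ranged between 4515 and 6471. The change of step called 22 loci, 6 among rows above the median row mean, 17 without the arrested arrays, and between 0 and 27 with single arrays left out. Without either arrested array, members at an unadjusted limma p under 0.05 numbered 10 in replication, 5 in histones, 8 in ribosome, 7 in senescence and 6 in aliphatic glucosinolate genes. These alternatives for unadjusted and non-overlapping counts were chosen after seeing the data. For the 24 h and 6 h arrays some settings are the same fit and not separate checks. These are the 6 fruit removal arrays alone, the r or g letter as a block, and each fit without 1 arrested array. Of 142 genes followed for their difference between 24 h and 6 h, none was called under any alternative, and 2235 of 2245 pairs of gene and setting kept their direction. The exceptions were RPS6A (-0.03 with median centring, and between -0.05 and 0.12 with single arrays left out), RPL23AA (-0.27 to 0.17), RPL5A (-0.35 to 0.01), JAZ12 (-0.42 to 0.02), CCA1 (-0.48 to 0.47), IRX3 (-0.01 to 1.1), DPE1 (-0.09 to 0.64) and ADG1 (-0.18 to 0.34). The causes were not tested. Direction could turn only with quantile normalization, median centring or a 6 h or 24 h array left out. The other settings leave the means of 24 h and 6 h as they are, so most pairs were bound to keep their direction. No paired analysis was possible because the labels of the 24 h and 6 h samples give no shared replicate numbers. The share of called loci that were higher could not be computed because 0 were called, and the change of step was not run with 4 arrays alone.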

Other observations

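Copper and antioxidant genes held several members that were higher at 24 h. Of 18, 9 had both 24 h arrays above both 6 h arrays and 3 below, near the 40.6% and 17.1% of all loci, with a median of 0.15. The copper/zinc superoxide dismutases CSD1 and CSD2 differed by 1.17 each and CCS, the chaperone that loads them with copper, by 0.80. In the heat shock list 5 of 12 lay above and 2 below, also near the shares of all loci, and MBF1C, a coactivator of heat responses, read 8.72 and 9.19 at 24 h against 7.97 and 7.56 at 6 h (1.19, SE 0.26). Of 30 photosynthesis genes 18 lay above and 6 below (40.6% and 17.1% of all loci), with a median of 0.13. Against arrested inflorescences 26 had fallen at 6 h (13.1% of all loci had) and 22 at 24 h (11.5%).

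EFE, an enzyme that makes ethylene, read 8.21 and 8.48 at 24 h against 10.01 and 9.70 at 6 h (-1.51, SE 0.26, limma adjusted p = 0.23). TPPJ, a trehalose phosphate phosphatase, read 7.48 and 7.85 at 24 h against 8.67 and 9.33 at 6 h (-1.33, SE 0.26), and 6 of 13 genes of its list lay below and 2 above, against 17.1% and 40.6% of all loci. In the flavonoid list 7 of 19 lay below and 1 above, against 17.1% and 40.6% of all loci, with a median of -0.32. PAP1, a MYB activator of anthocyanin genes, differed by -1.15 and MYB12, an activator of flavonol genes, by -0.75. In the wounding and defence list 10 of 21 lay below and 3 above, against the same shares of all loci, with PR1 at 1.46 and DIC2 at -1.51.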
